A study of Mus musculus with 20 samples.

Results

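The 8 genes described here are genes of the liver X receptor (LXR) system of cholesterol export in macrophages, taken by their symbols from a table of 21963 gene entries, and all 8 passed the filter on low counts, which left 11707 genes for testing. They are the receptors Nr1h2 and Nr1h3 with their partner Rxra, and the target genes Abca1, Abcg1, Apoe, Mylip and Lpcat3. The 20 RNA-seq libraries came from mouse bone marrow-derived macrophages (BMDMs) and formed 5 groups: 4 WT untreated, 5 WT with zymosan, 4 WT with zymosan and BAPTA-AM, 4 Mcu-/- untreated and 3 Mcu-/- with zymosan. Cells met zymosan, particles made from yeast cell walls, for 3 h. BAPTA-AM is a Ca2+ chelator that enters cells. The study's methods for other assays give 2 zymosan particles per cell and 10 uM BAPTA-AM, and its RNA-seq methods give neither. Mcu encodes the pore of the mitochondrial Ca2+ uniporter. The Mcu-/- BMDMs came from mice with a floxed Mcu allele and a Cre recombinase driven by the Cx3cr1 promoter, so that deletion rests on Cre activity in the myeloid lineage. Per the study's methods, mice of both sexes were used, those for WT and Mcu-/- experiments were 15 to 25 weeks old, and C57BL/6 mice were bought in; the strain of the floxed Cre mice and the sex behind each library are not given in the sources used here. All cells had been grown from bone marrow in L929-conditioned medium. The labels call the libraries biological replicates and do not say which animal each came from, so the p-values below measure the spread between these libraries.

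LXRs are nuclear receptors that bind DNA as a pair with a retinoid X receptor (RXR) and are switched on by oxysterols, the oxidized forms of cholesterol. In macrophages they raise the genes that move cholesterol out of the cell (the ATP-driven exporters ABCA1 and ABCG1 and the acceptor apolipoprotein E), cut its uptake through MYLIP, a ubiquitin ligase that marks lipoprotein receptors for degradation, and remodel membrane phospholipids through LPCAT3. Without ligand the pair holds corepressors, and ligand-bound LXR also dampens inflammatory genes in macrophages.

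In GENCODE M21, an annotation of mm10, all 8 are protein-coding genes. Nr1h2 (LXR beta, ENSMUSG00000060601) lies at chr7:44549616-44553951 on the minus strand, Nr1h3 (LXR alpha, ENSMUSG00000002108) at chr2:91184061-91202834 on the minus strand and Rxra (ENSMUSG00000015846) at chr2:27676440-27762957 on the plus strand. Abca1 (ENSMUSG00000015243) lies at chr4:53030787-53159895 on the minus strand and Abcg1 (ENSMUSG00000024030) at chr17:31057675-31117988 on the plus strand. Apoe (ENSMUSG00000002985) lies at chr7:19696109-19699188 on the minus strand, Mylip (ENSMUSG00000038175) at chr13:45389742-45412022 on the plus strand and Lpcat3 (ENSMUSG00000004270) at chr6:124663027-124704418 on the plus strand. Of the Lpcat3 exon length, 334 bases (10.22%) overlap exons of Emg1 on the opposite strand, and whether the counting used strand is not given in the sources used here, so Lpcat3 values may hold reads of Emg1. Nr1h3 shares 34 exon bases with Gm13783 on its own strand.

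Promoter sequences, 300 bases each with 250 before the transcription start, came from RefSeq on GRCm38.p6 and were matched by symbol for 7 of the 8 genes (11 entries; Abcg1 had none). They were searched on both strands for the LXR element DR4, that is AGGTCA, 4 bases of any kind and AGGTCA again, with at most 3 mismatches in the 2 repeats. Of the 11 entries 2 held a match, and 21.9% of all 32851 promoters of this length did. At most 2 mismatches were met in no entry of these genes and in 3.02% of all promoters. The NF-kB motif was in none of the 11 entries and in 8.46% of all promoters. The first sequences shown are the 2 with a match, that of Abca1 (chr4:53159846-53160145, minus strand, match on the opposite strand, first base at -67 from the start) and the downstream promoter of Rxra (chr2:27709042-27709341, plus strand, first base at -58). The promoters of Apoe (chr7:19699139-19699438, minus strand) and Mylip (chr13:45389492-45389791, plus strand), the genes with the largest differences between genotypes with zymosan, are shown beside them and held no match. Capitals mark the 2 repeats of the match, which describes these letters only and says nothing about binding. Enhancers farther away lie outside these windows.
Abca1: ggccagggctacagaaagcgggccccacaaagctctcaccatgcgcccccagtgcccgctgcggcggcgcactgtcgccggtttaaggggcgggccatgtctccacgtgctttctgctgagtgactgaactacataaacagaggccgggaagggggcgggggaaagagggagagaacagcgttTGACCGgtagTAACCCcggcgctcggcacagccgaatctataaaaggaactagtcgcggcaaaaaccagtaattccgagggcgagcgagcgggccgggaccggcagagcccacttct
Rxra, downstream: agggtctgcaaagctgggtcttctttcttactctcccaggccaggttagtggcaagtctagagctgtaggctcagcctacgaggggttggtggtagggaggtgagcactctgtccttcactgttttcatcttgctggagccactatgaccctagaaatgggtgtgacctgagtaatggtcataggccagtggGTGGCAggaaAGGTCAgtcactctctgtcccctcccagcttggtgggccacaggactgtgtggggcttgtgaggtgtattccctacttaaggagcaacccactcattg
Apoe: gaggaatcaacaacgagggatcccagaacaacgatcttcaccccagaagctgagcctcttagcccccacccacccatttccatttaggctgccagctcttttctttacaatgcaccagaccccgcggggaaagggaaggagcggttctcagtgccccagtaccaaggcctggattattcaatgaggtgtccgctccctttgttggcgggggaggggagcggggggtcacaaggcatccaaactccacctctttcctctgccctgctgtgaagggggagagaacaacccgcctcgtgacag
Mylip: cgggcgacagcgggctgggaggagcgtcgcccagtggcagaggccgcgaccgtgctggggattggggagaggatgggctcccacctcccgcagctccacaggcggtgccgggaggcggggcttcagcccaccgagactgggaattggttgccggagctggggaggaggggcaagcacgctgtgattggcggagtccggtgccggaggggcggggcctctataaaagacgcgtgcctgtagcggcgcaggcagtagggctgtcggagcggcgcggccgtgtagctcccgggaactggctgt

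Total counts per library ran from 14420402 (WT untreated replicate 4) to 23954552 (Mcu-/- with zymosan, column 5). Levels are given as CPM, the usual unit of counts relative to library size, here with TMM-scaled library sizes. The TMM factors were 1.22 to 1.24 in WT untreated and 0.865 to 0.881 in WT with zymosan. In Mcu-/- they were 1.15 to 1.23 untreated and 0.838 to 0.847 with zymosan. The direction of small changes with zymosan, the rises of Nr1h2 and Lpcat3 in WT among them, rests on this scaling. Levels without it were not computed. Mcu itself was at 6.10 to 9.55 CPM in the 13 WT and 2.63 to 4.05 CPM in the 7 Mcu-/- libraries, as counted over the whole gene, with a log2 difference of -0.82 between genotypes with zymosan (SE 0.14, edgeR adjusted p = 9.61e-05) and -1.14 without (SE 0.13, edgeR adjusted p = 0.000163). Untreated Mcu-/- replicate 4 stood apart from replicates 1 to 3: its mean chi-square per gene against them was 217 to 225, and 1.60 to 6.53 in the 28 other pairs of replicates. The fit shares 1 estimate of spread, and the biological coefficient of variation was 12.4% with this library and 3.56% without it. Calls of the 8 genes that changed without it are therefore given both ways, while some values and list counts are given with it only. Of 8 macrophage markers all were present in every group, with summed levels of 13700 to 16700 CPM in WT libraries without BAPTA-AM, 14600 to 14800 CPM with it, 14800 to 15100 CPM in untreated Mcu-/- replicates 1 to 3, 8730 CPM in replicate 4 and 10600 to 11000 CPM in Mcu-/- with zymosan. The 8 moved in both directions between genotypes with zymosan: Cd68 (3.75-fold), Fcgr1 (2.71-fold), Csf1r (1.92-fold) and Cd14 (1.27-fold) were higher in Mcu-/-, and Itgam (0.316 times), Lyz2 (0.396 times), Adgre1 (0.577 times) and Mrc1 (0.786 times) were lower. The 7 fibroblast and stroma markers summed to 1.31 to 7.65 CPM in WT libraries and in untreated Mcu-/- replicates 1 to 3, to 28.8 CPM in replicate 4 and to 45.7 to 53.7 CPM in Mcu-/- with zymosan. That sum was mainly Col1a1 (18.3 to 25.6 CPM in Mcu-/- with zymosan) and Col1a2 (21.8 to 24.6 CPM), with Col3a1 at 3.06 to 4.58 CPM, Pdgfrb at 1.35 to 1.89 CPM, Dcn at 0.177 to 0.398 CPM, Pdgfra at 0.0565 to 0.177 CPM and Lum at 0. Of the 7, 4 were tested, and between genotypes with zymosan 3 were called higher (Col1a1, Col1a2 and Col3a1) and 0 lower. The 8 neutrophil markers summed to at most 5.58 CPM, the mast cell and adipocyte markers to at most 0.155 CPM. The 5 B cell markers, of which Cd79b made up nearly all, summed to 53.6 to 55.8 CPM in WT untreated, 30.8 to 37.4 CPM in WT with zymosan, 18.8 CPM in untreated Mcu-/- replicate 4 and 13 to 13.6 CPM in Mcu-/- with zymosan. The 5 T cell markers summed to at most 3.65 CPM and the 5 dendritic cell markers to at most 11.9 CPM. The part of these marker differences in the results below was not tested, and in bulk RNA fewer cells of a type and less RNA per cell cannot be told apart.

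With zymosan, all 8 genes differed between the genotypes, in opposite directions. Apoe, Mylip, Rxra, Nr1h2 and Nr1h3 were higher in Mcu-/- than in WT BMDMs, and the exporters Abca1 and Abcg1 and the acyltransferase Lpcat3 were lower (edgeR's quasi-likelihood test over all genes, Benjamini-Hochberg adjusted p under 0.05). The differences ran from a log2 of 2.40 for Apoe to -0.82 for Abcg1. For each of the 8 every Mcu-/- library lay outside the WT range, and the share of all genes tested that did so was not counted. In this comparison 31.8% of all genes tested were called higher and 30.3% lower, so 5 higher and 3 lower of 8 stand against a background in which most genes were called. Without zymosan none of the 8 was called between genotypes, where 0.128% of all genes were called higher and 0.222% lower. At an unadjusted p under 0.05 there were 2 of the 8, where 14.9% of all genes met it: Abcg1 was lower, and Apoe was higher through replicate 4 (log2 1.01 with it and -0.11 without). DESeq2 called 0, with no adjusted p given for Apoe.

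In WT BMDMs, zymosan lowered Rxra, Mylip, Abca1, Abcg1 and Nr1h3 and raised Nr1h2 and Lpcat3, 5 lower and 2 higher of 8, where 36.8% of all genes were lower and 32.4% higher. In Mcu-/- BMDMs it lowered Rxra, Abcg1, Abca1 and Nr1h3 and raised Apoe and Nr1h2, 4 lower and 2 higher, with 39.4% of all genes lower and 34.3% higher. The difference of the 2 responses was called for 5 genes, Mylip, Rxra and Nr1h2 higher and Abcg1 and Abca1 lower, with 15.2% of all genes higher and 20% lower. BAPTA-AM moved 2 of the 8 in WT with zymosan, Rxra higher and Abcg1 lower, with 6.43% of all genes higher and 6.33% lower. The medians of the 8 log2 differences were 0.34 between genotypes with zymosan, -0.03 with BAPTA-AM, -0.55 for zymosan in WT and -0.08 for zymosan in Mcu-/-, where those of all genes tested were 0.02, 0, -0.04 and -0.06.

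Without untreated Mcu-/- replicate 4 the counts were 8 of 8 between genotypes with zymosan, 5 with BAPTA-AM, 8 for zymosan in WT, 7 for zymosan in Mcu-/-, 1 between untreated genotypes and 8 for the difference of the responses. The shares of all genes called in either direction without that library were 70.1%, 31.8%, 78.5%, 81.5%, 3.35% and 60.3% in the same order. The counts of the 8 genes thus moved with the counts of all genes.

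**Figure D1:**
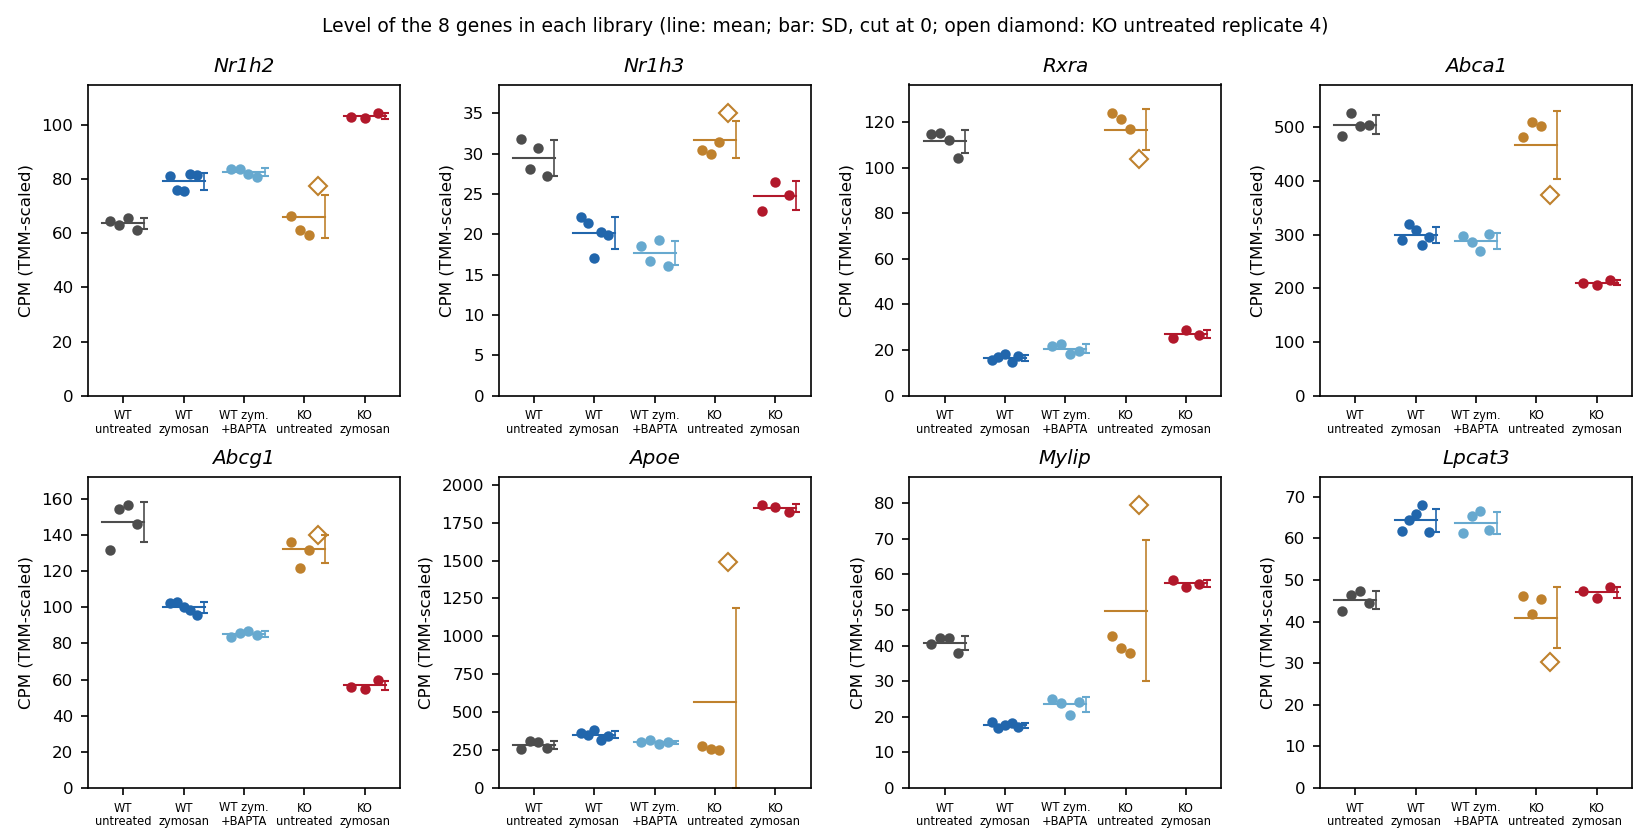
Each panel plots 1 gene, with the level in CPM on the vertical axis and the 5 groups on the horizontal axis; points are libraries, lines are group means and bars are SD. Apoe is at 1819 to 1866 CPM in the 3 Mcu-/- zymosan libraries and at 319 to 379 CPM in WT with zymosan, and untreated Mcu-/- replicate 4 (open diamond) is at 1493 CPM, far above replicates 1 to 3.

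Among the receptors, Rxra changed most with zymosan. It stood at 115, 115, 112 and 104 CPM in WT untreated and at 15.6, 17.2, 18.2, 14.8 and 17.5 CPM in WT with zymosan. In Mcu-/- it was at 124, 121, 117 and 104 CPM untreated and at 25.1, 28.8 and 26.8 CPM with zymosan. Every zymosan library of either genotype was far below every untreated one, and the Mcu-/- zymosan libraries were all above the WT zymosan libraries. Zymosan lowered Rxra by a log2 of 2.74 in WT (SE 0.07, edgeR adjusted p = 8.32e-17), to 0.149 times the untreated level. In Mcu-/- the log2 change was -2.12 (SE 0.09, edgeR adjusted p = 5.92e-14), and the responses differed by 0.63 (SE 0.11, edgeR adjusted p = 0.000302). With zymosan, Rxra was 1.61 times as high in Mcu-/- as in WT (log2 0.69, SE 0.08, edgeR adjusted p = 1.39e-06). BAPTA-AM libraries held 21.7, 22.8, 18.4 and 19.4 CPM, all above the highest WT zymosan library (18.2 CPM). This was a log2 of 0.30 over WT with zymosan (SE 0.08, edgeR adjusted p = 0.0113), a call that was lost without BAPTA-AM replicate 2 (log2 0.25, edgeR adjusted p = 0.0554).

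At TMM-scaled levels the 2 LXR genes moved in opposite directions with zymosan. Nr1h2, the broadly expressed receptor, stood at 64.7, 63.2, 65.8 and 61.1 CPM in WT untreated and at 81.1, 76.1, 75.7, 81.8 and 81.6 CPM in WT with zymosan. It was at 66.5, 61.4, 59.5 and 77.5 CPM in Mcu-/- untreated and at 103.2, 102.5 and 104.6 CPM with zymosan, the highest 3 of all 20 libraries. Nr1h2 rose with zymosan by a log2 of 0.32 in WT (SE 0.06, edgeR adjusted p = 7.92e-05) and by 0.64 in Mcu-/- (SE 0.07, edgeR adjusted p = 5e-08), and the responses differed by 0.33 (SE 0.09, edgeR adjusted p = 0.00725). Between genotypes with zymosan it differed by a log2 of 0.38 (SE 0.06, edgeR adjusted p = 4.2e-05). BAPTA-AM libraries, at 80.9 to 84.0 CPM, overlapped those without it (log2 0.06, SE 0.06, edgeR adjusted p = 0.597).

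Nr1h3, the receptor that is abundant in macrophages and liver and is itself an LXR target in man, was lower after zymosan. Its levels were 31.8, 28.1, 30.7 and 27.2 CPM in WT untreated and 22.2, 21.4, 17.1, 20.3 and 19.9 CPM in WT with zymosan. In Mcu-/- they were 30.5, 29.9, 31.5 and 35.1 CPM untreated and 22.9, 26.5 and 24.9 CPM with zymosan. The fall was a log2 of -0.55 in WT (SE 0.08, edgeR adjusted p = 4.3e-06) and -0.36 in Mcu-/- (SE 0.09, edgeR adjusted p = 0.00144). The difference of the falls was not called with all libraries (0.19, SE 0.12, edgeR adjusted p = 0.218). It was called without untreated Mcu-/- replicate 4 (0.25, edgeR adjusted p = 0.0285). With zymosan, Nr1h3 was higher in Mcu-/- by a log2 of 0.30 (SE 0.09, edgeR adjusted p = 0.00591), the smallest of the 8 differences. The lowest Mcu-/- library lay just above the highest WT one (22.9 and 22.2 CPM). BAPTA-AM libraries (16.1 to 19.3 CPM) lay partly below those without it, with a log2 of -0.19 (SE 0.08, edgeR adjusted p = 0.133) that was called without untreated Mcu-/- replicate 4 (edgeR adjusted p = 0.032).

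The exporters fell with zymosan in both genotypes and fell further in Mcu-/-. Abca1 passes cholesterol and phospholipid to lipid-poor apolipoprotein A-I. It stood at 484, 527, 502 and 505 CPM in WT untreated and at 290, 321, 309, 281 and 296 CPM in WT with zymosan. In Mcu-/- it was at 482, 509, 502 and 374 CPM untreated, with the low value in replicate 4, and at 210, 206 and 215 CPM with zymosan, the lowest 3 of all libraries. The log2 change with zymosan was -0.75 in WT (SE 0.07, edgeR adjusted p = 1.35e-08) and -1.15 in Mcu-/- (SE 0.08, edgeR adjusted p = 3.97e-10), and the responses differed by -0.40 (SE 0.11, edgeR adjusted p = 0.0082). Between genotypes with zymosan Abca1 differed by -0.51 (SE 0.08, edgeR adjusted p = 2.71e-05), 0.702 times the WT level. BAPTA-AM libraries (269 to 300 CPM) overlapped those without it (log2 -0.05, SE 0.07, edgeR adjusted p = 0.728).

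Abcg1, which hands cholesterol to mature HDL particles, had the largest negative difference between genotypes among the 8. Its levels were 132, 154, 157 and 146 CPM in WT untreated and 102, 103, 100, 98.5 and 95.7 CPM in WT with zymosan. In Mcu-/- they were 136, 122, 132 and 140 CPM untreated and 55.6, 55.1 and 59.7 CPM with zymosan, far below every other group. Zymosan lowered Abcg1 by a log2 of 0.56 in WT (SE 0.05, edgeR adjusted p = 6.28e-09), and in Mcu-/- the log2 change was -1.22 (SE 0.06, edgeR adjusted p = 9.62e-13). The responses differed by -0.66 (SE 0.08, edgeR adjusted p = 4.09e-06), and with zymosan Mcu-/- was at 0.568 times the WT level (log2 -0.82, SE 0.06, edgeR adjusted p = 2.02e-09). BAPTA-AM libraries held 83.5, 85.9, 86.9 and 84.5 CPM, all below the lowest WT zymosan library (95.7 CPM), a log2 of -0.23 (SE 0.05, edgeR adjusted p = 0.00429). Abcg1 was thus lower than in WT with zymosan both in Mcu-/- and with BAPTA-AM, and these comparisons share the WT zymosan libraries. It was also the gene called between untreated genotypes without replicate 4, with a log2 of -0.18 (edgeR adjusted p = 0.012; -0.15 and 0.22 with that library).

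Apoe, the apolipoprotein that macrophages secrete to carry cholesterol away, had the largest difference between genotypes of the 8 genes. Its levels were 255, 312, 301 and 263 CPM in WT untreated, 365, 348, 379, 319 and 341 CPM in WT with zymosan, and 306, 313, 289 and 302 CPM with BAPTA-AM. In Mcu-/- with zymosan they were 1866, 1856 and 1819 CPM, 5.27 times the WT level (log2 2.40, SE 0.41, edgeR adjusted p = 7.37e-05). Untreated Mcu-/- libraries held 277, 257, 251 and 1493 CPM: replicates 1 to 3 were at the WT untreated level, and replicate 4 was near the zymosan-treated Mcu-/- libraries. The spread of Apoe in the fit rests on that library. Zymosan raised Apoe in Mcu-/- by a log2 of 1.70 with it (SE 0.43, edgeR adjusted p = 0.00175) and 2.82 without it (SE 0.055, edgeR adjusted p = 2.21e-34). Fitted on the 2 Mcu-/- groups alone, it was 1.74 with that library and no call (edgeR adjusted p = 0.0571). In WT the log2 change was 0.31 (SE 0.38, edgeR adjusted p = 0.488), called higher without replicate 4 (SE 0.04, edgeR adjusted p = 6.95e-08), with every WT zymosan library above every untreated one. The difference of the responses was 1.39 (SE 0.57, edgeR adjusted p = 0.067) with replicate 4 and 2.51 (SE 0.07, edgeR adjusted p = 4.33e-28) without it. With BAPTA-AM all 4 libraries were below all 5 without it, a log2 of -0.21 (SE 0.38, edgeR adjusted p = 0.811) that was called lower without replicate 4 (edgeR adjusted p = 0.000216).

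Mylip, the ubiquitin ligase that limits lipoprotein uptake, was lowered by zymosan in WT, and no fall was called in Mcu-/-. It stood at 40.5, 42.2, 42.3 and 38.03 CPM in WT untreated and at 18.5, 16.7, 17.8, 18.2 and 17.1 CPM in WT with zymosan. In Mcu-/- it was at 42.6, 39.4, 37.8 and 79.5 CPM untreated and at 58.5, 56.5 and 57.4 CPM with zymosan. The zymosan libraries of Mcu-/- were thus above those of every WT group and between replicates 1 to 3 and replicate 4 of their own untreated group. The log2 change with zymosan was -1.21 in WT (SE 0.16, edgeR adjusted p = 1.57e-06) and 0.21 in Mcu-/- (SE 0.17, edgeR adjusted p = 0.287), the latter 0.53 and called higher without replicate 4 (edgeR adjusted p = 5.76e-11). The responses differed by 1.42 (SE 0.24, edgeR adjusted p = 0.000222), and with zymosan Mylip was 3.26 times as high in Mcu-/- as in WT (log2 1.70, SE 0.17, edgeR adjusted p = 2.13e-07). BAPTA-AM libraries held 25.1, 23.96, 20.5 and 24.3 CPM, all above the highest WT zymosan library (18.5 CPM). That log2 of 0.41 was not called with all libraries (SE 0.16, edgeR adjusted p = 0.112) and was called without untreated Mcu-/- replicate 4 (0.42, edgeR adjusted p = 5.95e-07).

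Lpcat3, which loads polyunsaturated acyl chains into phospholipids, was the target gene that zymosan raised in WT and for which no rise was called in Mcu-/-. It was at 42.5, 46.4, 47.3 and 44.4 CPM in WT untreated and at 61.8, 64.4, 65.8, 68.0 and 61.6 CPM in WT with zymosan. In Mcu-/- it was at 46.1, 41.8, 45.5 and 30.4 CPM untreated and at 47.4, 45.6 and 48.3 CPM with zymosan, so the zymosan libraries lay within or just above the range of the untreated ones. The log2 change was 0.51 in WT (SE 0.09, edgeR adjusted p = 2.72e-05) and 0.20 in Mcu-/- (SE 0.10, edgeR adjusted p = 0.0687; 0.08 and 0.141 without replicate 4). With DESeq2's size factors the change in Mcu-/- was 0.24 and called (edgeR adjusted p = 0.0333). The difference of the responses was -0.31 (SE 0.13, edgeR adjusted p = 0.0676), and -0.43 without replicate 4 (edgeR adjusted p = 1.03e-06). With zymosan Lpcat3 differed between genotypes by -0.45 (SE 0.09, edgeR adjusted p = 0.000456). BAPTA-AM libraries (61.2 to 66.7 CPM) overlapped those without it (log2 -0.01, SE 0.08, edgeR adjusted p = 0.963).

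Each gene was tested on its own as well, with two-sided exact permutation of the log2 levels between 2 groups (40 tests in all). The test was run on the 8 genes only, so the share of all genes that reach the smallest possible p is not known. Between genotypes with zymosan, p was 0.0179 for 7 genes, the smallest that 3 against 5 libraries allow, and 0.0357 for Nr1h3 (0.0377 and 0.0571 after Benjamini-Hochberg adjustment over the 40). With BAPTA-AM the exact p was 0.00794, the smallest possible, for Rxra, Abcg1 and Mylip and 0.0159 for Apoe (0.0289 and 0.0377 adjusted). It was 0.0794 to 0.77 for the other 4 genes. For zymosan in WT it was 0.00794 for each of the 8, Apoe included. For zymosan in Mcu-/- it was 0.0286, the smallest possible, for Nr1h2, Nr1h3, Rxra, Abca1 and Abcg1, and 0.0571 for Apoe, 0.457 for Mylip and 0.2 for Lpcat3. Between untreated genotypes the lowest of the 8 exact p-values was 0.0857, for Abcg1.

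**Figure D2:**
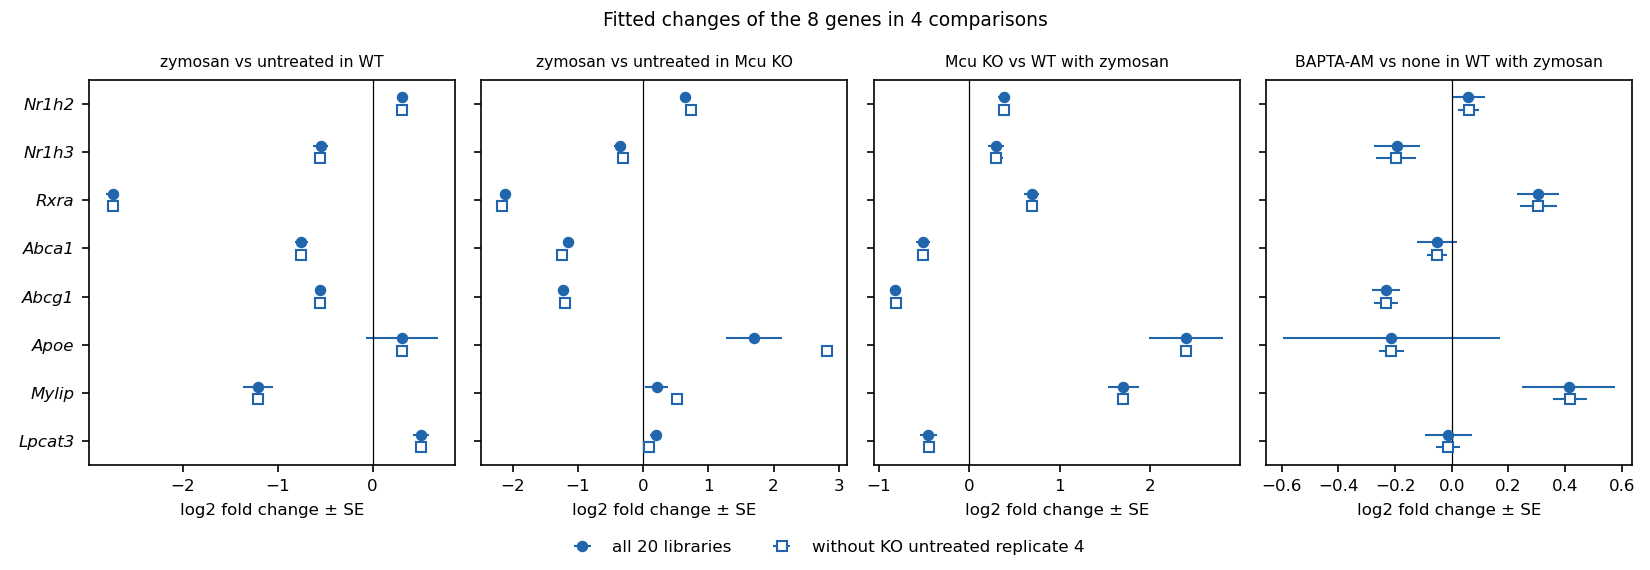
The log2 fold change of each gene is plotted on the horizontal axis, with its SE as a bar, in 4 comparisons; filled circles are from all 20 libraries and open squares are without untreated Mcu-/- replicate 4. Apoe moves most between the fits, from 1.70 to 2.82 for zymosan in Mcu-/-, and its SE with all libraries is 0.38 to 0.43; the horizontal scales differ between panels.

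The levels of untreated Mcu-/- replicate 4 were set beside those of the other Mcu-/- libraries, each as a log2 shift from the WT mean of the same treatment. For Apoe the shift was 2.41 in replicate 4, -0.17 to -0.03 in replicates 1 to 3 and 2.38 to 2.42 in the zymosan libraries. For Abca1 it was -0.43 in replicate 4, -0.06 to 0.01 in the others and -0.54 to -0.48 with zymosan. For Lpcat3 it was -0.57, -0.11 to 0.03 and -0.50 to -0.41 in the same order. Mylip (0.97, -0.11 to 0.07 and 1.68 to 1.73), Nr1h2 (0.28, -0.10 to 0.06 and 0.37 to 0.40) and Nr1h3 (0.25, 0.03 to 0.10 and 0.19 to 0.40) also lay nearer the zymosan-treated libraries in replicate 4. Rxra and Abcg1 did not: the shift of Rxra was -0.10 in replicate 4 and 0.60 to 0.79 with zymosan, and that of Abcg1 was -0.07 and -0.86 to -0.74. Over all 7272 genes called between genotypes with zymosan, 86.7% were shifted in the called direction in replicate 4 and 50 to 51% in replicates 1 to 3. Of the 8 genes, 7 were shifted that way in replicate 4, and 4 to 6 in the others.

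**Figure D3:**
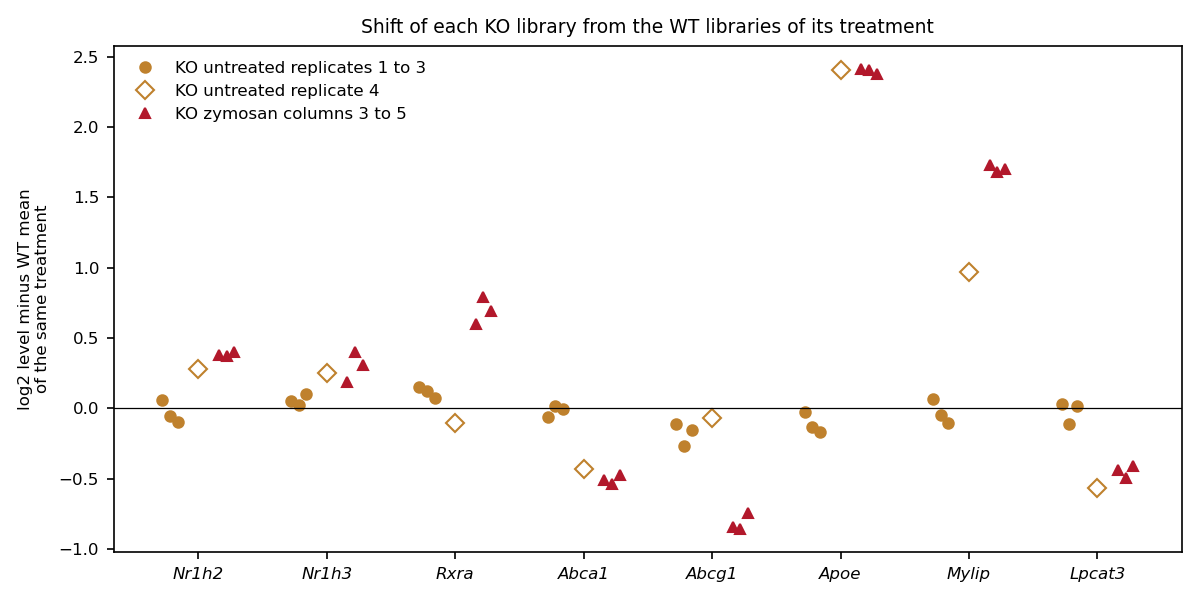
Each point is 1 Mcu-/- library, with its log2 level minus the mean of the WT libraries of the same treatment on the vertical axis and the 8 genes on the horizontal axis. Untreated replicate 4 (open diamonds) sits beside the zymosan libraries (triangles) for Apoe at 2.41 and for Abca1 at -0.43, and beside the other untreated libraries (circles) for Abcg1 at -0.07.

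The zymosan response of Mcu-/- therefore depended on the untreated library it was taken from, to a different degree for each gene. Taken from replicates 1 to 3 in turn, the log2 response of Apoe was 2.74 to 2.88, and from replicate 4 it was 0.31, within the WT range of 0.16 to 0.46. The response of Abca1 was -1.28 to -1.20 and -0.83 from replicate 4, where WT gave -0.82 to -0.70. Mylip changed sign, with 0.43 to 0.60 from replicates 1 to 3 and -0.47 from replicate 4, both above the WT range of -1.26 to -1.11. Lpcat3 gave 0.03 to 0.17 and 0.63 (WT 0.44 to 0.60). Like Mylip, the genes Abcg1, Rxra and Nr1h2 stayed outside the WT range against every untreated library. The response of Nr1h2 was 0.637 to 0.798 from replicates 1 to 3 and 0.417 from replicate 4 (WT 0.268 to 0.375). The response of Abcg1 was -1.26 to -1.10 and -1.30 from replicate 4 (WT -0.65 to -0.40), and that of Rxra was -2.21 to -2.13 and -1.95 (WT -2.79 to -2.65).

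Compared per kilobase of exon, the order of the levels was led by Apoe in every group, at 132 ± 13.2 CPM per kb in WT untreated (SD, n = 4), 164 ± 10.8 in WT with zymosan (n = 5) and 864 ± 11.6 in Mcu-/- with zymosan (n = 3). Abca1 followed in WT untreated at 48.7 ± 1.70 CPM per kb (n = 4) and in WT with zymosan at 28.9 ± 1.52 (n = 5). In WT untreated, Rxra (20.4 ± 0.94), Abcg1 (20.2 ± 1.53) and Nr1h2 (19.0 ± 0.61) came next and did not differ beyond their spread, followed by Lpcat3 (13.8 ± 0.65), Mylip (12.6 ± 0.61) and Nr1h3 (11.7 ± 0.87). In Mcu-/- with zymosan Nr1h2 stood second at 30.8 ± 0.32 CPM per kb and Abca1 came after it at 20.3 ± 0.44 (n = 3). Rxra was last in both zymosan groups, at 3.05 ± 0.25 CPM per kb in WT (n = 5) and 4.93 ± 0.33 in Mcu-/- (n = 3).

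The genes whose levels over the 20 libraries were nearest to those of each member were found by the root mean square difference of their log2 levels, each centred on its own mean. The closest pair within the 8 was Abca1 and Abcg1 (0.16). Nearest to Abca1 among all genes tested were Naa60 (0.08), Mms19 and Thap12, and to Abcg1 Elf4 (0.10), Plekhm1 and Zfp710. The nearest to Apoe were Cadm1 (0.20), Folr2 (0.21) and Cd68 (0.22), where the SD of Apoe itself over the libraries was 1.05. For Mylip they were Gclm (0.15), 1190002N15Rik and Klf2, for Lpcat3 Atp13a3 (0.06), Zfand6 and Psat1, and for Rxra Abl1 (0.13), 6430548M08Rik and Ski. For Nr1h2 they were Mybbp1a (0.05), Csnk1d and Hsp90b1, and for Nr1h3 Plod1 (0.11), Rab14 and Lrrc14. These likenesses describe 20 libraries that fall into 5 groups, untreated Mcu-/- replicate 4 included.

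Other targets of LXR were counted from a list of 20 genes, of which 17 were tested. For all lists below, the shares of all genes called higher and lower were 31.8% and 30.3% between genotypes with zymosan. They were 32.4% and 36.8% for zymosan in WT, 34.3% and 39.4% in Mcu-/-, and 6.43% and 6.33% with BAPTA-AM. Without untreated Mcu-/- replicate 4 the shares in either direction were 70.1%, 78.5%, 81.5% and 31.8% in the same order. In Mcu-/- against WT with zymosan 9 of the 17 were lower and 2 higher, with a median log2 of -0.38 where that of all genes was 0.02. Without untreated replicate 4 these counts were 10 and 4. Among the lower ones at 10 CPM or more were Scd2, Fasn and Pltp. Scd2, a fatty acid desaturase, differed by -4.07 (edgeR adjusted p = 7.77e-06), with 10.4 to 10.8 CPM in Mcu-/- and 158 to 196 CPM in WT with zymosan, and it was at 20.7 CPM in untreated Mcu-/- replicate 4 and 271 to 281 CPM in replicates 1 to 3. The transcription factor Spib, at a lower level and named after its values were seen, differed by -1.84 (edgeR adjusted p = 0.00223). Fasn, the fatty acid synthase, differed by -1.19 (edgeR adjusted p = 1.39e-05) and Pltp, the phospholipid transfer protein, by -1.03 (edgeR adjusted p = 2.22e-06). Lpl, the lipoprotein lipase, was higher by 0.70 (edgeR adjusted p = 5.33e-05) and Cd5l by 0.27 (edgeR adjusted p = 0.0333). Zymosan in WT raised 6 of the 17 and lowered 8, among them Mertk, a receptor for apoptotic cells, at 0.88 and the acyl-CoA ligase Acsl3 at -1.54 (edgeR adjusted p = 0.000118 and 1.52e-05). In Mcu-/- it raised 4 and lowered 9. BAPTA-AM raised Acsl3 (0.81, edgeR adjusted p = 0.0366) and Srebf1, the regulator of fatty acid synthesis (0.36, edgeR adjusted p = 0.0375), and lowered Mertk (-0.77, edgeR adjusted p = 0.0046). Without untreated replicate 4, 4 were higher and 4 lower with BAPTA-AM. The difference of the responses was called higher for 1 and lower for 5 of the 17, where 15.2% of all genes were higher and 20% lower. Without replicate 4 it was 3 and 9, where 60.3% of all genes were called in either direction.

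**Figure D4:**
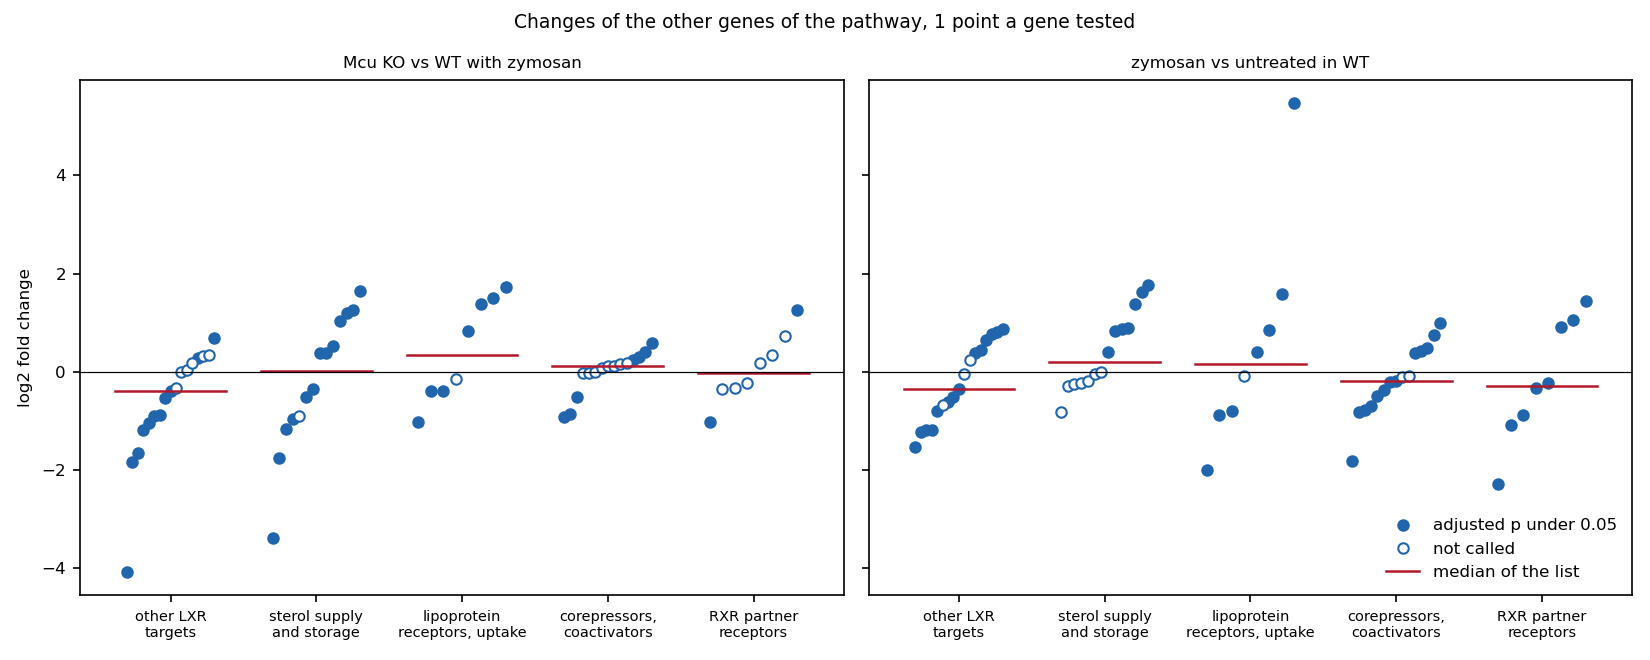
Each point is 1 gene tested from 5 lists of the LXR pathway, with its log2 fold change on the vertical axis in Mcu-/- against WT with zymosan (left) and in zymosan against untreated WT (right); filled points have an edgeR adjusted p under 0.05 and red lines are list medians. On the left the median of the other LXR targets is -0.38 and the lowest point is Scd2 at -4.07.

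Genes that make LXR ligands or move and store cholesterol inside the cell formed a list of 16, of which 14 were tested. In Mcu-/- with zymosan 7 were higher and 6 lower than in WT, a median of 0.01. Among the higher ones were Lipa, Plin2 and Npc2. Lipa, the lysosomal acid lipase, differed by 1.66 (edgeR adjusted p = 2.74e-05), Plin2, a lipid droplet coat protein, by 1.25 (edgeR adjusted p = 0.00255) and Npc2, which carries cholesterol out of the lysosome, by 1.197 (edgeR adjusted p = 0.000297). Among the lower ones were the sterol carriers Gramd1a (-1.15, edgeR adjusted p = 3.99e-07) and Stard4 (-0.96, edgeR adjusted p = 7.67e-05). Zymosan in WT raised 7 of the 14, and without untreated Mcu-/- replicate 4 it raised 7 and lowered 4. Ch25h, which makes 25-hydroxycholesterol, rose by 1.76 there (edgeR adjusted p = 3.94e-08) and by 1.66 in Mcu-/- (edgeR adjusted p = 3.84e-07), where 7 of the 14 rose and 4 fell. Without untreated replicate 4, 10 of the 14 rose in Mcu-/- and 4 fell. BAPTA-AM lowered Ch25h by 0.60 (edgeR adjusted p = 0.0238) and Gramd1b by 0.30 (edgeR adjusted p = 0.00183) and raised Soat1, the enzyme that esterifies cholesterol, by 0.38 (edgeR adjusted p = 0.0327). Without untreated replicate 4, 6 were higher and 5 lower with BAPTA-AM.

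Of 9 genes of lipoprotein uptake 8 were tested, and in Mcu-/- with zymosan 4 were higher and 3 lower. The scavenger receptor Msr1 (1.72, edgeR adjusted p = 3.67e-05) and the apolipoprotein E receptors Lrp1 (1.51, edgeR adjusted p = 3.98e-07) and Lrp8 (1.38, edgeR adjusted p = 1.21e-07) were higher. The scavenger receptor Olr1 (-1.02, edgeR adjusted p = 1.46e-05) and the HDL receptor Scarb1 (-0.39, edgeR adjusted p = 2.92e-05) were lower. Zymosan in WT raised 4, with Olr1 at 5.47 (edgeR adjusted p = 1.46e-15), and lowered 3, with Lrp8 at -2.00 (edgeR adjusted p = 2.09e-11). In Mcu-/- 4 rose and 3 fell, and 5 and 3 without untreated replicate 4. BAPTA-AM lowered 2 of the 8, among them Olr1 (-0.61, edgeR adjusted p = 0.00387), and raised Lrp8 (0.50, edgeR adjusted p = 0.0146), named after its values were seen. Without untreated Mcu-/- replicate 4, 6 of the 8 were lower with BAPTA-AM and 1 higher, where 31.8% of all genes were called in either direction.

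All 15 corepressors and coactivators of LXR on the list were tested. In Mcu-/- with zymosan 4 were higher, led by the coactivator Ncoa1 (0.58, edgeR adjusted p = 3.49e-05), and 3 lower, led by Asxl1 (-0.93, edgeR adjusted p = 2.45e-08) and the coactivator Ncoa3 (-0.86, edgeR adjusted p = 1.47e-08). Without untreated replicate 4 these counts were 7 and 3. Zymosan raised 5 and lowered 8 of the 15 in WT, among them the coactivators Ncoa3 (1.00, edgeR adjusted p = 4.72e-11) and Ncoa1 (-0.83, edgeR adjusted p = 4.71e-08), and raised 3 and lowered 7 in Mcu-/-. Without untreated replicate 4 it raised 5 and lowered 9 in WT, and raised 5 and lowered 7 in Mcu-/-. With BAPTA-AM 1 rose and 1 fell, and 5 and 3 without untreated replicate 4. Of the 12 other receptors that pair with RXR 8 were tested, of which Ppard was lower in Mcu-/- with zymosan (-1.02, edgeR adjusted p = 3.37e-09) and the orphan receptor Nr4a2, at low level and named after its values were seen, was higher (1.27, edgeR adjusted p = 0.00267). Zymosan in WT raised 3 of the 8, among them Pparg (1.05, edgeR adjusted p = 0.000197), and lowered 5. Of the other RXR genes, Rxrb was tested and fell with zymosan by 0.51 in WT (edgeR adjusted p = 4.25e-07), and in Mcu-/- its log2 change was -0.73 (edgeR adjusted p = 3.69e-08); Rxrg did not pass the filter. Without zymosan 0 of the 63 genes tested from these lists were called between genotypes by edgeR, with 22 at an unadjusted p under 0.05, which 14.9% of all genes tested met. That fit holds untreated replicate 4, whose part in the 22 was not tested, and the unadjusted count without it is not given here. Without untreated replicate 4, 4 of the 63 were higher and 3 lower, where 3.35% of all genes were called in either direction.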

How the data were processed

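RNA-seq of 20 BMDM libraries in 5 groups was analysed from 1 table of counts per gene. The authors trimmed the reads with cutadapt, aligned them to mm10 with STAR and deposited raw HTSeq counts; versions, annotation and strand setting are not given in the sources used here. All columns were used. The 3 columns of Mcu-/- with zymosan carry the numbers 3, 4 and 5 where the labels count 1 to 3, so they were assigned by group. Genes passing edgeR's filter (11707) were fitted in 1 quasi-likelihood model of all 20 libraries with TMM scaling (edgeR 4.0.16, R 4.3.3), with Benjamini-Hochberg adjusted p under 0.05 as a call. Single genes were also compared by exact permutation tests. Figures were drawn with matplotlib 3.10.9. On simulated data of 11209 genes for Mcu-/- against WT with zymosan, 195 of 200 genes changed by a log2 of 1 were recovered, with 13 false calls. The simulation gave every gene the same spread, held no library that stands apart, and changed only these 200 genes. It therefore does not show how the fit performs where most genes are called, as in the real comparison. The 8 genes and the lists were chosen with earlier results of these data known. Of each list and comparison, up to 3 called genes per direction with at least 10 CPM were named; some that met this rule are not reported here. Same-numbered libraries of different groups did not deviate together: the correlations of 24 pairs were -0.06 to 0.07. Alternatives were DESeq2 1.42.0, its size factors, no low-count filter, at least 10 counts in every library, a minimum fold, the 2 groups alone, a replicate block and leaving out each library.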

Additional observations from a re-analysis of the deposited data

Results flagged for a closer look

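Untreated Mcu-/- replicate 4 was far above the other 3 libraries of its group for 2 genes. For Apoe (1493 CPM against 251 to 277 CPM) the gap to the nearest library was 0.944 of the group's range, and for Mylip (79.5 CPM against 37.8 to 42.6 CPM) it was 0.838; both pass Dixon's 95% limit for 4 libraries. In all, 32 groups of values were checked, and chance flags about 1 in 20.

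The zymosan response differed between the genotypes, by the test of the difference itself, for 5 of the 8 genes. Of all genes tested, 15.2% were called higher and 20% lower by the same test. The difference of the log2 responses (Mcu-/- minus WT) was 1.42 for Mylip, 0.63 for Rxra and 0.33 for Nr1h2, and it was -0.66 for Abcg1 and -0.40 for Abca1. The edgeR adjusted p-values ran from 4.09e-06 for Abcg1 to 0.0082 for Abca1, and each difference kept its sign without untreated replicate 4. In the fit without that library 60.3% of all genes were called for the difference, in either direction.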

How the results depend on the processing

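Between genotypes with zymosan, all 8 genes were called under every alternative run but 2: DESeq2 called 7, giving no adjusted p for Apoe, and a log2 difference of at least 1 left Apoe and Mylip, that is 2. The same minimum left 0 with BAPTA-AM, 2 for zymosan in WT and 1 for the difference of the responses. With only the groups of the comparison in the fit, 4 genes were called with BAPTA-AM. Leaving out 1 library at a time gave 1 to 5 calls with BAPTA-AM (1 without BAPTA-AM replicate 2, 5 without untreated Mcu-/- replicate 4), 5 to 8 for the difference of the responses, 0 to 1 between untreated genotypes, 8 to 8 between genotypes with zymosan, 6 to 7 for zymosan in Mcu-/- and 7 to 8 for zymosan in WT. With all libraries 6.43% of all genes were called higher and 6.33% lower with BAPTA-AM. Without untreated Mcu-/- replicate 4 it was 31.8% in either direction. For the difference of the responses the shares were 15.2%, 20% and 60.3% in the same order. Shares of all genes under the other alternatives are not given here, so the counts of the 8 genes under them have no background. Values that changed sign under an alternative were not called in either form. They were Lpcat3 with BAPTA-AM (-0.033 to 0.012) and, between untreated genotypes, Nr1h2 (-0.03 to 0.103), Apoe (-0.114 to 1.26) and Mylip (-0.032 to 0.40). Nr1h3 with BAPTA-AM was called without WT zymosan replicate 3 (-0.25, edgeR adjusted p = 0.0422). Of 1218 comparisons of a gene's value with its alternative, 1193 kept direction and side of the threshold, 17 gained a call, 2 lost it and 6 changed sign; apart from fewer libraries, the cause was not tested. The replicate block, fitted over the 4 groups with shared numbers, called 2 genes with BAPTA-AM, 7 for zymosan in WT and 0 between untreated genotypes, the counts without the block. It could not be fitted for Mcu-/- with zymosan, whose columns carry other numbers. Depth does not limit the 8 genes, whose counts were at least 271 in every library, but 11 genes of the lists were too low to test.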
